A study of Mus musculus with 6 samples.

Results

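A set of 10 genes that serve the late steps of enamel formation was followed in the root-forming tissue of the mouse molar, with and without the transcription factor Lhx6. They were taken by name: Amtn, Odam, Klk4, Wdr72, Slc24a4, Slc4a4, Slc4a2, Car2, Car6 and Slc26a4. All 10 were found among the 23594 genes of the deposited counts, which the authors had filtered. RNA was sequenced from mandibular first molars of C57BL/6 mice aged 4.5 days, in 3 libraries of wild type mice (control) and 3 libraries of Lhx6-/- mice. The Lhx6-/- mice carried on both copies of the gene a knock-in allele, Lhx6-CreER, that places a tamoxifen-dependent Cre recombinase at the Lhx6 locus and removes the function of the gene in every cell. Lhx6 is a LIM homeodomain protein of the dental mesenchyme. The tissue was cut by laser from frozen sections at the apical side of the future furcation, the place where the roots part, and material of several molars was pooled for each library. Lhx6 itself lay between 18.2 and 27.8 counts per 1000000 counts (CPM) in the control libraries and between 9.82 and 12.8 CPM in the Lhx6-/- libraries, with no overlap (log2 fold change -1.04, adjusted p = 0.0210). Adjusted p-values come from the quasi-likelihood test of edgeR and are corrected over all tested genes by Benjamini and Hochberg's method. After the authors' filter the libraries held between 60132323 and 76157433 estimated counts.

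Enamel is laid down by ameloblasts, the epithelial cells that cover the tooth crown. In the secretory stage they release a soft protein matrix, and in the maturation stage they remove that matrix and load the space with mineral. Amtn (amelotin) and Odam are secreted onto the basal lamina between the maturing cells and the enamel, Klk4 is the serine protease that digests the matrix, and Wdr72 serves vesicle traffic and uptake at the apical membrane. Mineral growth releases acid and consumes calcium, so maturation stage cells need carriers for both. Slc24a4 exchanges sodium for calcium together with potassium, and Slc4a4 carries sodium with bicarbonate into the cell. Slc4a2 and Slc26a4 (pendrin) exchange chloride for bicarbonate. Car2 is a carbonic anhydrase of the cytosol and Car6 a carbonic anhydrase that is secreted.

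Of the 10 genes, Amtn fell in Lhx6-/- tissue, to 193 CPM from 280 CPM. Car6 was 2.10-fold higher in Lhx6-/- tissue at a very low level and did not pass the adjusted test. Odam and Klk4, the vesicle traffic gene Wdr72, and the ion carriers Slc24a4, Slc4a4 and Slc4a2 did not pass it either, nor did Car2. Slc26a4 was too rare to be tested. In tissue made of many cell types, fewer cells of a type and less RNA per cell cannot be told apart, and this holds for every difference given here.

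The genes were spread over a wide range of levels. Divided by the length of all annotated exons in kilobases (CPM per kb), the control means ran from 274 ± 2.80 for Amtn and 107 ± 19.3 for Odam (SD, n = 3 libraries) to 0.0538 ± 0.0279 for Slc26a4. Between these lay Klk4 at 43.6 ± 4.58, Car2 at 23.5 ± 2.09, Slc4a2 at 15.4 ± 0.528, Slc4a4 at 3.74 ± 0.752, Slc24a4 at 1.67 ± 0.150, Car6 at 0.412 ± 0.0829 and Wdr72 at 0.346 ± 0.0584 CPM per kb. In this order 8 of the 9 pairs of neighbours did not overlap between their control libraries, and Car6 and Wdr72 did. With the length of the longest transcript instead, Wdr72 stood above Car6, and Car2 and Slc4a2 overlapped as well. Amtn exceeded 99.4% of the 20114 tested genes in CPM per kb, Odam 98.7% and Klk4 96.7%, whereas Slc24a4 exceeded 45.3%, Car6 23.3% and Wdr72 20.9%.

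Of 6 genes of the secretory stage list, Amelx, Ambn and Enam stood above all 10. Amelx, which encodes amelogenin, the main protein of the enamel matrix, reached 103000 ± 6690 CPM per kb in control libraries, and Ambn (ameloblastin) reached 16300 ± 1640 (SD, n = 3). The level of Enam (enamelin) was 941 ± 136 CPM per kb. Acp4, a phosphatase of secretory ameloblasts, lay at 143 ± 12.4 CPM per kb and Mmp20, the protease of the secretory stage, at 105 ± 17, both below Amtn and close to Odam. Odaph, a small protein needed in maturation, was the lowest at 0.589 ± 0.124 CPM per kb. Which epithelial cells in the captured tissue gave these transcripts was not tested.

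**Figure D1:**
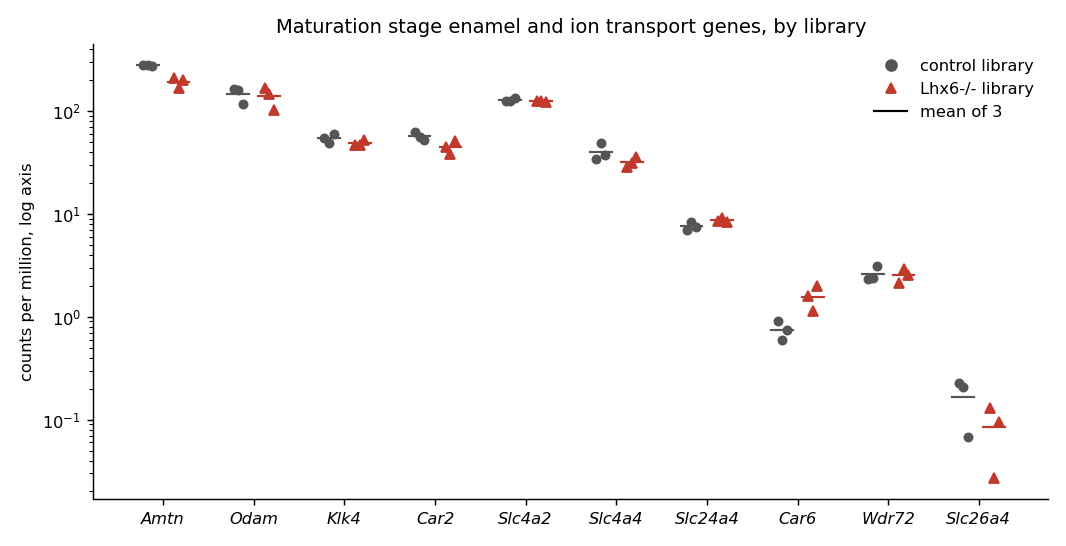
CPM of each of the 10 genes on a log axis, with 1 point per library (3 control circles and 3 Lhx6-/- triangles per gene) and a line at each mean, ordered by control level per exon length. The groups separate for Amtn (277 to 283 against 169 to 210 CPM), Car2, Slc24a4 and Car6.

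Among the enamel proteins, Amtn measured 283, 280 and 277 CPM in control and 210, 169 and 200 CPM in Lhx6-/- libraries, given here and later in the order of replicates 1, 2 and 3. Even the highest Lhx6-/- library was below the lowest control library, and the control libraries scarcely differed from each other. The difference was -0.54 on the log2 scale (standard error 0.09) with an adjusted p of 0.0210 (edgeR), and Amtn held place 40 among the 20114 tested genes ordered by p. The fold of 1.45 stayed just short of the 1.5-fold that the study's selection rule asks for together with an unadjusted p under 0.05. The adjusted p of Amtn ran from 2.8e-07 to 0.450 over 15 alternative fits and stayed under 0.05 in 10 of them. It was 0.102 without Lhx6-/- replicate 2 and 0.136 without control replicate 3 (edgeR).

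Odam, whose gene lies in the same stretch of chromosome 5 and which encodes a partner of amelotin, measured 163, 162 and 117 CPM in control and 167, 147 and 103 CPM in Lhx6-/- libraries. The groups overlapped, with the lowest library of each group well below its companions. The log2 fold change was -0.09 (standard error 0.21) and its 95% interval, taken from the standard error, ran from -0.50 to 0.33.

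Klk4 measured 54.5, 48.8 and 60.2 CPM in control and 46.9, 46.4 and 52 CPM in Lhx6-/- libraries. Lhx6-/- replicate 3 lay above control replicate 2, so that the groups overlapped, and the log2 fold change was -0.17 (standard error 0.09, adjusted p = 0.585 from edgeR). Wdr72 was faint, at 2.31, 2.36 and 3.09 CPM in control and 2.14, 2.90 and 2.53 CPM in Lhx6-/- libraries. Its groups overlapped fully (log2 fold change -0.04, standard error 0.23, interval -0.50 to 0.42).

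Among the ion carriers, Slc4a2 was the steadiest of the 10 genes: it measured 126, 125 and 133 CPM in control and 126, 125 and 123 CPM in Lhx6-/- libraries. The highest library was 1.08 times the lowest, and the interval of the log2 fold change, -0.16 to 0.09, was the narrowest among the 9 tested genes. Slc4a2 overlaps Fastk and Gm22333 on the opposite strand, and Slc24a4 overlaps Gm16339 and Gm25203 on its opposite strand. Whether the counting used strand is not given in the sources used here. Many cell types outside the enamel organ, osteoclasts included, use Slc4a2.

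Slc4a4 measured 33.9, 49.5 and 37.7 CPM in control and 28.7, 31.0 and 35.5 CPM in Lhx6-/- libraries. Only Lhx6-/- replicate 3 reached the control range, and the log2 fold change was -0.35 (standard error 0.14, adjusted p = 0.436 from edgeR). Control replicate 2, the highest for Slc4a4, was also the highest control library for dental epithelium markers. With the mean level of those markers as a covariate the log2 fold change of Slc4a4 was 0.00. With the mean level of Y-linked genes it was -0.76 (adjusted p = 0.00908 from edgeR). The marker mean did not overlap between the genotypes and the Y-linked mean barely did, so these fits separate covariate and genotype poorly.

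The calcium exchanger Slc24a4 measured 6.92, 8.27 and 7.51 CPM in control and 8.45, 9.14 and 8.34 CPM in Lhx6-/- libraries. The Lhx6-/- libraries lay above all control libraries by a narrow margin, and the log2 fold change of 0.19 (standard error 0.13) did not pass the test (adjusted p = 0.717 from edgeR). It was positive in all 15 alternative fits, between 0.02 and 0.33. Slc26a4 gave only 14, 14 and 4 counts in control and 8, 2 and 7 counts in Lhx6-/- libraries, and was removed by the filter on low counts. A difference in pendrin could not be detected at this depth.

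The carbonic anhydrases Car2 and Car6 stood on opposite sides. Car2 measured 62.2, 56.2 and 52.1 CPM in control and 44.7, 37.9 and 51.2 CPM in Lhx6-/- libraries (log2 fold change -0.35, standard error 0.11, adjusted p = 0.277 in edgeR). The groups did not overlap, but control replicate 3 and Lhx6-/- replicate 3 nearly met. Car6 measured 0.900, 0.599 and 0.744 CPM in control and 1.59, 1.14 and 1.99 CPM in Lhx6-/- libraries, which correspond to 56, 40 and 44 against 97, 85 and 148 counts. All 3 Lhx6-/- libraries were above all 3 control libraries, and the log2 fold change was 1.07 (standard error 0.35, interval 0.39 to 1.76, adjusted p = 0.299 from edgeR). Car6 met the fold and unadjusted p rule in 13 of 15 alternative fits, the exceptions being the fit with the epithelial covariate and the fit without Lhx6-/- replicate 3, its highest library.

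**Figure D2:**
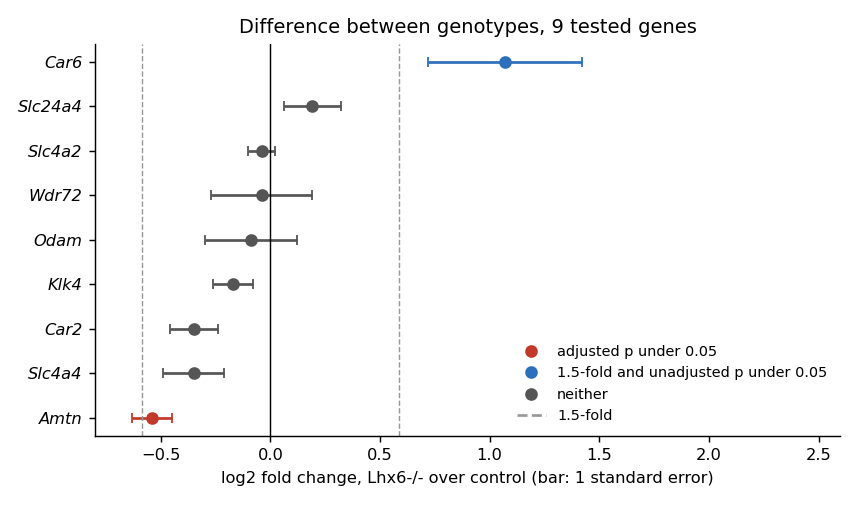
Log2 fold change (Lhx6-/- over control, horizontal axis) of the 9 tested genes with a bar of 1 standard error, and dashed lines at 1.5-fold in either direction. Amtn at -0.54 has an adjusted p under 0.05 but sits inside the 1.5-fold line, and Car6 at 1.07 sits outside it without an adjusted p under 0.05.

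Counted over the 9 tested genes, 1 (Car6) met the rule of 1.5-fold or more at an unadjusted p below 0.05, which 3.28% of all 20114 tested genes met. An adjusted p under 0.05 was reached by 1 gene (Amtn), against 0.403% of all tested genes. The libraries of the groups did not overlap for 4 genes (Car6 and Slc24a4 higher, Amtn and Car2 lower), against 15.5% of all tested genes. The log2 fold change was below 0 for 7 genes and above 0 for 2. Their median was -0.09, beside 0.00 over all tested genes. Because the genes that passed the filter on low counts are not all 10, and because the 10 were named with earlier results of these data known, these counts describe the genes and no test was made on the list.

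On chromosome 5, several of these genes lie in a row with the genes of the secretory stage. In mm10, on the plus strand, Odam lies at chr5:87885029-87894174, Amtn at chr5:88376108-88385916, Ambn at chr5:88455991-88468531, Enam at chr5:88487975-88506049 and Slc4a4 at chr5:88886818-89239653. The gaps between neighbours of this set are 481.9, 70.1, 19.4 and 380.8 kb. Odam, Amtn, Ambn and Enam belong to the family of secretory calcium-binding phosphoproteins, which arose by gene duplication, whereas Slc4a4 is unrelated to them. Slc4a2 is also on chromosome 5 but far away, at chr5:24423837-24440950 on the plus strand. The others lie on other chromosomes: Klk4 at chr7:43881160-43885804, Wdr72 at chr9:74110356-74283308, Slc24a4 at chr12:102128733-102267091 and Car2 at chr3:14886273-14900770 on the plus strand, and Car6 at chr4:150187015-150201332 and Slc26a4 at chr12:31519827-31559969 on the minus strand. All 10 are annotated as protein-coding, and the counts sum over each whole gene.

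Ambn, the next gene of the row after Amtn, measured 29000, 34800 and 30000 CPM in control and 28300, 26300 and 34700 CPM in Lhx6-/- libraries. The groups overlapped and the log2 fold change was only -0.07 (adjusted p = 0.918 in edgeR). Enam had a log2 fold change of 0.02 and Amelx, on the X chromosome, of -0.12, and neither passed the test. Within the row, only Amtn lay below its control range in all 3 Lhx6-/- libraries.

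**Figure D3:**
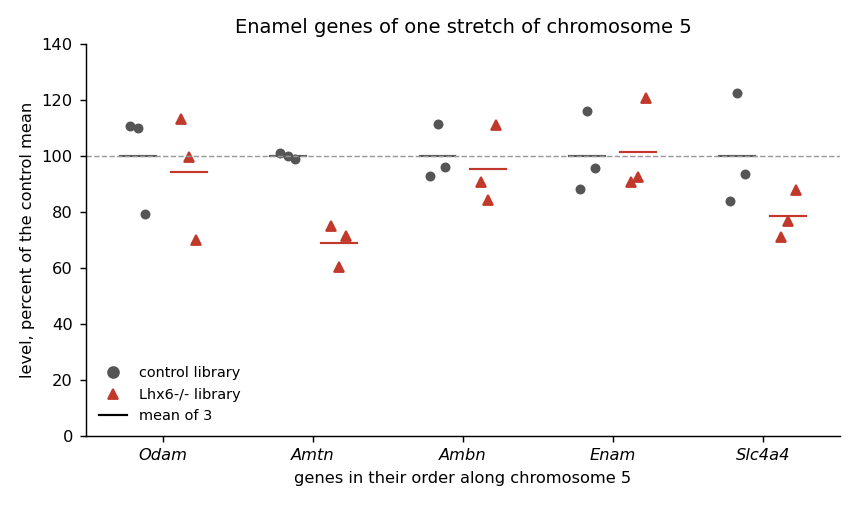
Level of 5 genes in their order along chromosome 5, as percent of each gene's control mean, with 1 point per library (3 control circles, 3 Lhx6-/- triangles) and a line at each mean. The 3 Lhx6-/- libraries of Amtn lie below all its control libraries, while those of Odam, Ambn, Enam and Slc4a4 overlap with control.

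Amtn was also set against other epithelial genes within each library, in 5 ratios chosen after the values were seen. Per 100 CPM of Ambn, Amtn gave 0.977, 0.803 and 0.925 CPM in control and 0.742, 0.642 and 0.576 CPM in Lhx6-/- libraries, with no overlap (two-sided exact permutation test, p = 0.1, the smallest that 3 against 3 libraries allow, adjusted over the 5 ratios 0.167). The ratios of Amtn to Enam and to Klk4 did not overlap either, with the lower values in Lhx6-/- libraries, each with an exact permutation p of 0.1 and an adjusted value of 0.167. The ratio to Odam overlapped between groups (exact permutation p = 0.300, adjusted 0.375). Per 100 CPM of Krt14, the keratin of the basal epithelial layer, Amtn gave 90.5, 62.3 and 85.4 CPM in control and 94.3, 73.3 and 78.0 CPM in Lhx6-/- libraries, so that the groups overlapped (exact permutation p = 0.900, adjusted 0.900). With 3 libraries per group this test cannot reach 0.05, so the ratios are given as values.

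Promoter sequence was read for the genes whose levels are set against each other above, Odam, Amtn and Ambn of the chromosome 5 row, and for Car6. The sequences come from RefSeq on GRCm38.p6 and cover 250 bases before to 50 after an annotated start: chr5:87884760-87885059, plus strand (Odam), chr5:88375858-88376157, plus strand (Amtn), chr5:88455741-88456040, plus strand (Ambn), and chr4:150201086-150201385, minus strand (Car6). They are printed 5′ to 3′ along the gene, and capitals mark the core motif TAAT of homeodomain proteins on either strand (TAAT or ATTA, which may overlap each other).
Odam: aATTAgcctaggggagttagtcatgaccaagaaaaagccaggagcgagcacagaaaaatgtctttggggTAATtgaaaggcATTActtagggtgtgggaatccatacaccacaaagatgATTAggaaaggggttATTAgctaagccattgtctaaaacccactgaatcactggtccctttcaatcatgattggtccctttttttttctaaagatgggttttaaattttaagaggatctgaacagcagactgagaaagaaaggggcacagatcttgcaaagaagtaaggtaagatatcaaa
Amtn: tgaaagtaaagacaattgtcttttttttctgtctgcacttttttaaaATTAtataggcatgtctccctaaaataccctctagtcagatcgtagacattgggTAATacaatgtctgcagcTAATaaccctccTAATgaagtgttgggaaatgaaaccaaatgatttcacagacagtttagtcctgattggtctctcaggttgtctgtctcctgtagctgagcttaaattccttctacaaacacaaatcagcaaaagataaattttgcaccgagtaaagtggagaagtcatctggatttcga
Ambn: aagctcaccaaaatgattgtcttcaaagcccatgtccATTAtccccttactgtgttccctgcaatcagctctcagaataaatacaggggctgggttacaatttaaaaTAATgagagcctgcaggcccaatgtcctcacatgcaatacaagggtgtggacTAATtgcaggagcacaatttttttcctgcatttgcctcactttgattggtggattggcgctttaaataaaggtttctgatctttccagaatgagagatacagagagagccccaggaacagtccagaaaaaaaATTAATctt
Car6: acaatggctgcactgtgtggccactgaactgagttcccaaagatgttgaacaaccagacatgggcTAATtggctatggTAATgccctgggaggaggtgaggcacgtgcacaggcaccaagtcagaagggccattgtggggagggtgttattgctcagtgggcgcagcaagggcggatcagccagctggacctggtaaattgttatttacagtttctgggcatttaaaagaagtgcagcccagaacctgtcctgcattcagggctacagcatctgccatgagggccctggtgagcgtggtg
The Amtn window held 4 such cores, the Odam window 5, the Ambn window 5 and the Car6 window 2. Enam held 4, Slc24a4 and Slc26a4 held 1 each and Klk4 none, while the windows at the alternative starts of Slc4a4 held 0 and 2 and those of Slc4a2 none. Of all 32851 RefSeq promoter windows of this length 58% held at least 1 core, with a median of 1 per window. The longer palindrome TAATTA, present in 5.29% of all windows, was in none of those read. Of the 10 genes, 8 had an entry, and Wdr72 and Car2 did not. A match of these letters is a description of the window and not a binding site.

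The related genes were read next, family by family and without the 10 genes themselves: 87 genes in 8 lists, of which 76 were tested. The fold and unadjusted p rule was met by 6 of the 76, and an adjusted p under 0.05 by 0 (edgeR), against 3.28% and 0.403% of all tested genes. At an unadjusted p under 0.05 there were 10 of the 76, against 9.81% of all tested genes. DESeq2 gave 2 with an adjusted p under 0.05, the kallikreins Klk7 and Klk14, against 315 of all 20114. Of the 6 genes on the secretory stage list, only Odaph met the rule, the gene described above as needed in maturation. Odaph measured 2.52, 2.02 and 1.66 CPM in control and 1.39, 1.15 and 0.941 CPM in Lhx6-/- libraries (log2 fold change -0.83, adjusted p = 0.352 from edgeR). Among 16 further genes whose loss disturbs enamel, in which Odaph is listed too, no other gene met it. Of 17 tested genes of calcium and pH handling in ameloblasts, 0 met the rule, and the most abundant, the calcium-binding Calb1, had a log2 fold change of -0.04.

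Of the carbonic anhydrases other than Car2 and Car6, 12 were tested and 0 met the rule. The most abundant was Car3 at 403 ± 41.5 CPM in control and 363 ± 3.54 CPM in Lhx6-/- libraries (SD, n = 3). Car5a, which acts in mitochondria, had 0 counts in every control library and 6, 0 and 14 counts in Lhx6-/- libraries. In the Slc4 family of bicarbonate carriers 1 of 6 other tested genes met the rule: Slc4a8, at 1.09, 0.748 and 0.795 CPM in control and 1.85, 1.5 and 1.41 CPM in Lhx6-/- libraries (log2 fold change 0.85, adjusted p = 0.384 from edgeR). The sodium and calcium exchangers of the Slc24 and Slc8 families, 7 tested beside Slc24a4, gave 0, and their most abundant gene Slc8a3 had a log2 fold change of 0.11.

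Among 9 anion exchangers of the Slc26 family with Cftr, Slc26a9 met the rule on few counts, 19, 30 and 65 in control against 0, 7 and 10 in Lhx6-/- libraries (adjusted p = 0.271 from edgeR). The sulfate carrier Slc26a2, the most abundant of the family, had a log2 fold change of -0.06. Of 8 tested kallikreins beside Klk4, the epidermal proteases Klk7, Klk11 and Klk14 met the rule and were lower. Klk7 gave 16, 32 and 66 counts in control and 0, 0 and 9 in Lhx6-/- libraries, and Klk14 31, 49 and 125 against 18, 21 and 13. Klk8, the most abundant kallikrein of the list, had a log2 fold change of -0.31 and did not meet it. The highest value of any of the 8 in any library was 7.24 CPM, for Klk1 in Lhx6-/- replicate 2 (named after its values were seen), below every library of Klk4.

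**Figure D4:**
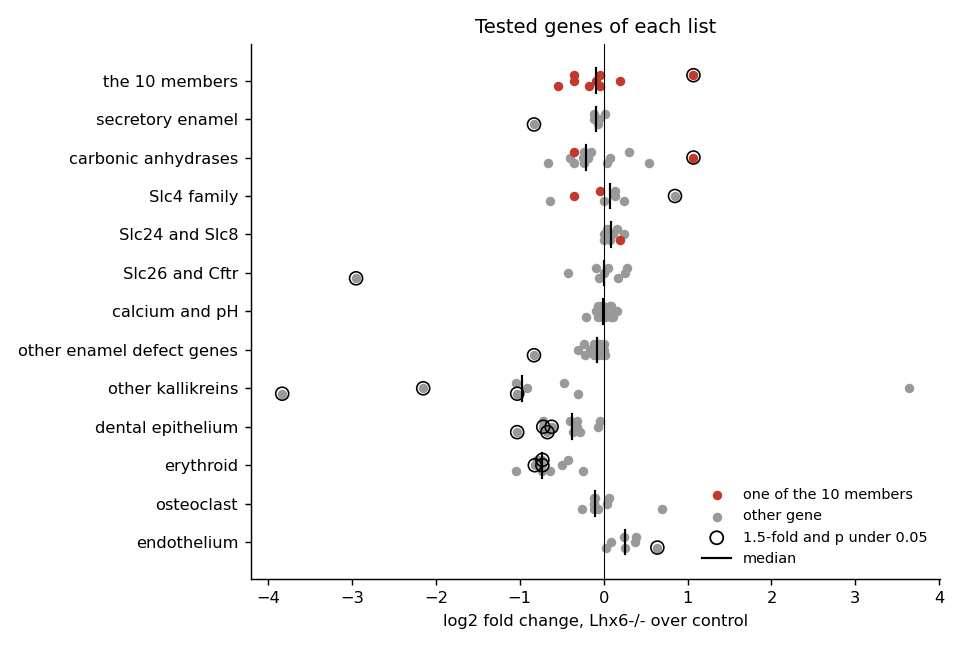
Log2 fold change (Lhx6-/- over control, horizontal axis) of every tested gene of 13 lists, with the 10 members of the main list in red wherever they appear, rings around genes that met the rule of 1.5-fold and unadjusted p under 0.05, and a line at the median of all points in a row. Points of the calcium and pH list stay near 0, while all 12 points of the dental epithelium markers lie below 0.

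Markers of cell types were read in the same libraries. All 12 dental epithelium markers had a log2 fold change below 0, with a median of -0.38. The rule was met by 4 of them, among which were the keratins Krt14, Krt5 and Krt17, and 0 of the 12 had an adjusted p under 0.05 in edgeR, where 6 had an unadjusted p under 0.05 (9.81% of all tested genes did). In DESeq2 4 of the 12 had an adjusted p under 0.05 (Krt14, Krt17 and Cldn1 among them), against 315 of all 20114. Their summed level was 1390 to 2140 CPM in control and 1020 to 1210 CPM in Lhx6-/- libraries, with no overlap. Amtn moved in the same direction. With the mean log2 level of these markers as a covariate, the log2 fold change of Amtn was -0.59 (adjusted p = 0.0581 from edgeR). That mean was 5.81 to 6.48 in control and 5.43 to 5.72 in Lhx6-/- libraries. Covariate and genotype are therefore poorly separated in this fit.

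Erythroid markers were read likewise. All 10 had a log2 fold change below 0, the rule was met by 3 (Hbb-bs, Hba-a1 and Alas2), and 0 had an adjusted p under 0.05 in edgeR (4 had an unadjusted p under 0.05, and 3 an adjusted p under 0.05 in DESeq2). The sum was 3050 to 3780 CPM in control and 1620 to 2420 CPM in Lhx6-/- libraries. Red blood cells are rich in Car2. With the mean level of erythroid markers as a covariate the log2 fold change of Car2 was -0.12 and that of Amtn -0.39 (adjusted p = 0.450 from edgeR). That mean, in log2 CPM, was 5.68 to 6.21 in control and 4.42 to 5.69 in Lhx6-/- libraries. Covariate and genotype are therefore poorly separated in this fit, and whether blood content accounts for the difference in Car2 was not tested. Osteoclasts use Car2 and Slc4a2 to secrete acid, and of their 10 markers 0 met the rule. A log2 fold change below 0 was found for 7 of them and above 0 for 3, with a median of -0.10. In edgeR 1 of the 10 had an unadjusted p under 0.05, against 9.81% of all tested genes. The sums were 3970 to 4220 CPM in control and 3520 to 4230 CPM in Lhx6-/- libraries.

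Car6 is known above all from saliva. Of 8 markers of salivary acinar cells 3 were in the deposited counts, which the authors had filtered, and 0 passed edgeR's expression filter. The sums of those 3 were 0.0964 to 0.524 CPM in control and 0.242 to 0.491 CPM in Lhx6-/- libraries. Bpifa2 had 15 counts in control replicate 2 and 0 in every other library. Of 7 endothelial markers, all with a log2 fold change above 0, 1 passed the adjusted test (Cldn5, log2 fold change 0.64, adjusted p = 0.0140 from edgeR). In edgeR 5 of the 7 had an unadjusted p under 0.05, against 9.81% of all tested genes. DESeq2 gave 2 with an adjusted p under 0.05 (Cdh5 and Cldn5), against 315 of all 20114. For 5 of the 7 all Lhx6-/- libraries lay above all control libraries, where 15.5% of all tested genes did not overlap in either direction. The endothelial sums were 269 to 275 CPM in control and 306 to 359 CPM in Lhx6-/- libraries. Of 9 odontoblast markers 0 met the rule, 7 lay above 0 and 2 below, and 2 had an unadjusted p under 0.05 in edgeR. Dspp was one of these (log2 fold change 0.33, adjusted p = 0.199 from edgeR) and had an adjusted p under 0.05 in DESeq2, against 315 of all 20114 genes. Of 7 macrophage markers 0 met the rule, 2 lay above 0 and 5 below. An unadjusted p under 0.05 was reached by 2 of the 7, against 9.81% of all tested genes (edgeR). The summed level of 4 Y-linked genes was 14.6 to 58.0 CPM in control and 55.1 to 92.1 CPM in Lhx6-/- libraries, ranges that met only at their edge. With their mean level as a covariate Amtn had a log2 fold change of -0.48 (adjusted p = 0.0650 from edgeR) and Car6 of 1.46.

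**Figure D5:**
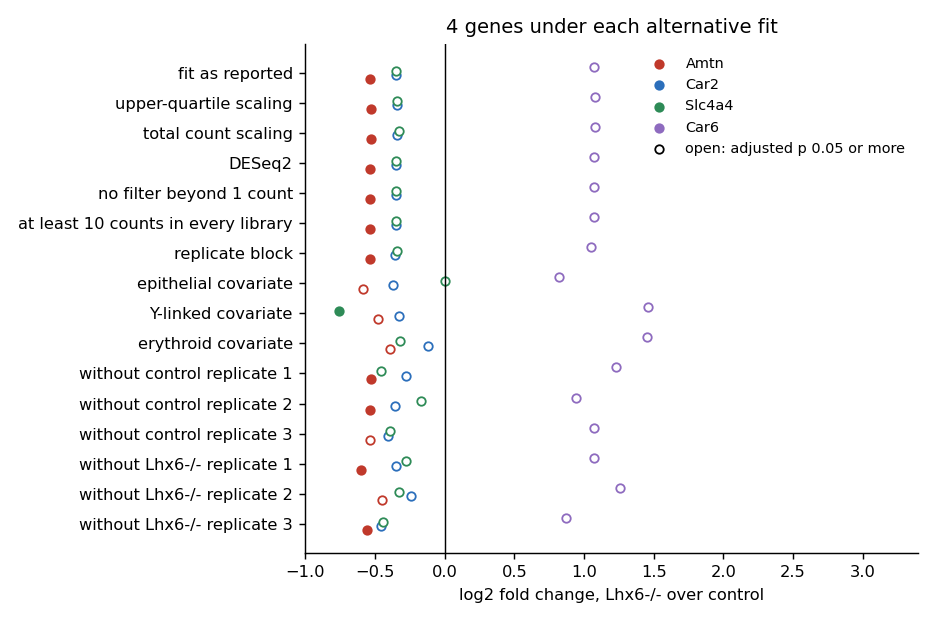
Log2 fold change (Lhx6-/- over control, horizontal axis) of Amtn, Car2, Slc4a4 and Car6 under the fit as reported and 15 alternative fits (rows), with filled points for an adjusted p under 0.05. Amtn stays between -0.60 and -0.39 and Car6 between 0.82 and 1.46, whereas Slc4a4 moves between -0.76 and 0.00 with the covariate.

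The profile over the 6 libraries was compared with that of other genes of at least 5 CPM, by the Euclidean distance between log2 CPM values centred on each gene's mean. Of the 9 tested genes, Car6 was the 1 whose log2 CPM spanned more than 1 unit (1.68). Among the nearest profiles were those of Sfrp2 (distance 0.393), a secreted modulator of Wnt signalling, and Igfbp3 (0.492), a binding protein of insulin-like growth factors. For Amtn, added after its values were seen, the nearest was Ighm (0.0648), the heavy chain of immunoglobulin M. Profiles of all tested genes above this level over 6 libraries were compared, so near neighbours occur for any gene.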

How the data were processed

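RNA was read as single-end 75-cycle libraries by the authors, who aligned the reads to mm10 (GRCm38) with STAR 2.6.1d and counted them per gene in Partek. The deposited values are estimated counts for 23594 genes, not normalized but already filtered by the authors. Every gene in them reaches at least 10 counts in some library. They hold 79.96% (Lhx6-/- replicate 2) to 85.19% (control replicate 3) of the library totals behind the authors' mean values. A gene absent from them may have been removed by that filter. Gene names were attached to the count rows through the mean values in the table of the authors' own comparison, whose fold changes and p-values were not used (largest relative deviation of the order check 1.14e-07). Estimated counts were rounded and tested with edgeR 4.0.16 in R 4.3.3 (TMM scaling, robust quasi-likelihood test, genotype only, two-sided, edgeR's expression filter), with Benjamini-Hochberg adjustment over 20114 genes. CPM used TMM-scaled library sizes. Biological variation between libraries had a coefficient of 0.202. A standard error was obtained from each fitted log2 fold change and its F statistic. The labels do not say that the libraries of a group came from separate animals, so p-values measure the spread between these libraries. Exon lengths come from GENCODE vM21. DESeq2 1.42.0 and the covariates were alternatives. The code was tested on simulated data. The 10 genes and all lists were chosen with earlier results of these data known. Named from other lists were genes with an adjusted p under 0.05, genes meeting the rule of 1.5-fold with an unadjusted p under 0.05, the gene of highest mean CPM, and genes with at most 3 counts in each library of a group. Some genes that these rules select are not reported here. Figures were drawn with matplotlib 3.10.9.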

Additional observations from a re-analysis of the deposited data

How the results depend on the processing

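The count of genes meeting the fold and unadjusted p rule was 1 as reported (Car6) and 2 with the Y-linked covariate (Car6 and Slc4a4), and ran from 0 to 2 when single libraries were left out: 2 without Lhx6-/- replicate 1 (Amtn joined) and 0 without Lhx6-/- replicate 3. With the epithelial covariate it was also 1, but Amtn in place of Car6. The count with an adjusted p under 0.05 was 1 as reported and 0 with the epithelial and with the erythroid covariate, the latter chosen after seeing the data, and ran from 0 to 1 when single libraries were left out. With the Y-linked covariate it was 1, Slc4a4 in place of Amtn. The median log2 fold change of the tested genes, -0.09, was 0.00 with the Y-linked covariate and ran from -0.19 to -0.10 when single libraries were left out. Reversed signs were small: when single libraries were left out Odam ran from -0.24 to 0.09 (without Lhx6-/- replicate 3) and Wdr72 from -0.15 to 0.11 (without control replicate 3), and Wdr72 was at 0.02 with the Y-linked covariate, under which Klk4 was at 0.00 and Slc4a2 at 0.01. The count in the related lists was 3 with the erythroid covariate, against 6 as reported. The cause of these shifts was not tested.

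Scaling, filters and DESeq2 changed no call of the 10 genes. Over all genes 81 had an adjusted p under 0.05 as reported. DESeq2 gave 315, the Y-linked covariate 359 and the replicate block 134. The epithelial covariate gave 22 and the erythroid covariate 6. The number ran from 12 (without control replicate 3) to 127 (without control replicate 1) when single libraries were left out, and was 20 without Lhx6-/- replicate 2. In fits where Amtn lost its call, most other genes often did too, except with the Y-linked covariate. Mutant mice were littermates of controls and the labels speak of 3 pairs, but no source used here says that a shared replicate number marks a pair. Libraries with the same number in their titles, the numbering used here, did not deviate together (correlations 0.0256, -0.0288 and -0.0314). The authors' own library names number the Lhx6-/- libraries differently. By those names control replicate 2 shares its number with Lhx6-/- replicate 1 (correlation -0.0616), and control replicate 3 with Lhx6-/- replicate 2 (-0.00645). In the fit with the replicate block, which followed the numbers in the titles, the log2 fold change of Amtn was -0.54 (adjusted p = 0.0148 from edgeR). No call of the 10 genes changed in that fit. Depth limited Slc26a4 most, and Car6 and Wdr72 also carried more counting error than the others. With 3 libraries per group a difference as large as that of Car2 or Slc4a4 did not pass the adjusted test.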
